A study of Mus musculus with 9 samples.

Results

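The polyamine metabolism genes are 10 genes of the mouse liver transcriptome: Odc1, Srm, Sms, Amd1, Sat1, Smox, Paox, Azin1, Oaz1 and Oaz2. They were chosen by symbol among the 21703 rows of the deposited count table. All 10 had a row and all 10 had enough reads to be among the 12651 genes tested. RNA was sequenced from 9 livers of C57BL/6J mice aged 4 weeks, in 3 groups of 3. All mice carried R26-M2-rtTA, a doxycycline-dependent transactivator placed at the Rosa26 locus, which is active in most cell types. Which cells of the liver were induced was not measured. The control livers (no dox) carried Col-TetOP-Mycl-ires-mCherry and were left untreated. For the Mycl livers, mice of that genotype received 0.2 ml of doxycycline (2.0 mg/ml) by intraperitoneal injection, 48 h before collection. Mice with Col-TetOP-c-Myc-ires-mCherry were injected likewise and gave the c-Myc livers. No untreated c-Myc mice, and no mice given doxycycline without a transgene, were analysed here, so in both comparisons with no dox the transgene and the drug cannot be told apart, and in that of c-Myc neither can the line.

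Polyamines are small positively charged molecules that bind nucleic acids and are needed for cell growth and translation. Ornithine decarboxylase, the product of Odc1, makes putrescine from ornithine, and Srm and Sms encode the synthases that turn putrescine into spermidine and spermidine into spermine. Both synthases use the aminopropyl donor made by the Amd1 product, S-adenosylmethionine decarboxylase. Sat1 acetylates spermidine and spermine, Paox oxidises the acetylated products and Smox oxidises spermine directly. The antizymes Oaz1 and Oaz2 bind ornithine decarboxylase and send it to the proteasome, and the antizyme inhibitor Azin1, an inactive relative of the enzyme, binds antizyme in its place. Odc1 is a classical target gene of MYC, whose dimers with MAX bind the E-box CACGTG.

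In short, Srm, Odc1 and Amd1, all genes of synthesis, were higher in the livers with 48 h of c-Myc induction than in untreated livers. No gene of polyamine breakdown and no regulator of ornithine decarboxylase passed the test in any of the 3 comparisons. In some alternative fits Sat1, Azin1 and Oaz1 did pass. The c-Myc calls of Odc1 and Amd1 were lost without some single libraries. Under Mycl none of the 10 genes passed, although Srm did in some alternative fits. Over all genes tested, 3.2% passed for Mycl and 20.7% for c-Myc, each against no dox. Srm had the largest value of the 10, 7.05-fold higher in c-Myc than in no dox livers, and it was also higher in c-Myc than in Mycl livers. Both comparisons with no dox use the same 3 control livers.

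The sequences around the start sites show where the MYC recognition letters lie in the synthesis genes, 3 of which were higher in c-Myc than in no dox livers. RefSeq windows from 250 bases before to 50 bases after a start site (GRCm38.p6) were found for 8 of the 10 members, in 10 windows; Srm and Azin1 had none. The windows were searched for CACGTG, which reads the same on both strands, and for CACGCG on either strand, a variant E-box added after the windows had been read. For Srm the retained-intron transcript of GENCODE M21 gives the last 126 of the 257 bases of intron 1 (GRCm38, chr4:148591918-148592043, plus strand). The windows of Odc1 (chr12:17544623-17544922, plus strand), Amd1 (chr10:40302139-40302438, minus strand) and Sms (window 1, chrX:157492238-157492537, minus strand) follow, all 5′ to 3′ with the motif letters in capitals.
Srm intron 1: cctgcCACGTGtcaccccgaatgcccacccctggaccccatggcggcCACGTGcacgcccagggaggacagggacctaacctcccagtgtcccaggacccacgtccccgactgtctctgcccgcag
Odc1: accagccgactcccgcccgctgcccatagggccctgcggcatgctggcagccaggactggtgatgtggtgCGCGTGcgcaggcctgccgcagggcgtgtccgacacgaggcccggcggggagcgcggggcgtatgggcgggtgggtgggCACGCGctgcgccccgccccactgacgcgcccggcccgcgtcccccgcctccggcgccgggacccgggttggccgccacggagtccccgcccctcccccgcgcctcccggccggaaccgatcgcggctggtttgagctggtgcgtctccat
Amd1: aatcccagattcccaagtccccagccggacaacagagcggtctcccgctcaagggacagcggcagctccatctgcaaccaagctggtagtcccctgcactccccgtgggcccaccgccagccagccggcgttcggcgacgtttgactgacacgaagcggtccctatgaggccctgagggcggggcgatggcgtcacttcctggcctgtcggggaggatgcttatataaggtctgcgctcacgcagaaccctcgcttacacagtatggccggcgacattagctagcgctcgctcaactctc
Sms: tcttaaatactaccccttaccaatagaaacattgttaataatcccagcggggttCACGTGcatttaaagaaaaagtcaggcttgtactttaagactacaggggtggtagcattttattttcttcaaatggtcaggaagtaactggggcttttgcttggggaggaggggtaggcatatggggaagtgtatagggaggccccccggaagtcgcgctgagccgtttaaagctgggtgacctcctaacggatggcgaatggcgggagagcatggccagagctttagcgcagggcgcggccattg

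The Srm stretch holds CACGTG 2 times, starting 420 and 462 bases after the annotated gene start. The Sms window holds it once, 196 bases before the start site. The Odc1 window has no CACGTG and 2 CACGCG, 1 on each strand, 180 and 101 bases before the start site; the Amd1 window has neither. Among the 8 members with windows, 1 held CACGTG and 3 held CACGCG (Odc1, Oaz1 and the other Sms window). Of the 27025 genes with windows in the table, 8.09% held CACGTG and 10.5% held CACGCG. No such share was computed for introns. These matches are letters in a window and not binding measurements, and the larger part of the Odc1 and Srm genes was not searched.

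Total counts ran from 11013412 to 20079232 per liver. Every library matched its label: the reporter IRES-mCherry was at 0.316 to 1.10 CPM (counts per 1e+06 reads after scaling) in the no dox livers and at 52.3 to 282 CPM in the 6 induced livers. Myc was at 81.8 to 270 CPM in c-Myc livers and at most 14.2 CPM elsewhere, and Mycl at 49.1 to 234 CPM in Mycl livers and at most 11.6 CPM elsewhere. The defining hepatocyte markers were high in all livers, with a summed level of 72524 to 157611 CPM over 8 of 8 markers. Mycl replicate 1 stood apart. It had the lowest total and the lowest reporter level of the induced livers. Genes with a coding transcript under 800 nt differed there from the no dox mean by a median of 1.40 (log2), and by no more than 0.22 in any of the remaining 8 libraries. The neutrophil and monocyte markers (8 of 8 in the table, none at 0 in all livers) summed to 309 CPM in it, against 52.9 to 68.6 CPM in no dox livers and 82.2 to 139 CPM in the other 5 induced livers. Erythroid markers (7 of 8 in the table, none at 0 in all livers) summed to 542 CPM there and to at most 300.2 CPM elsewhere. Several values that moved by over 1.5 times without this library are given with and without it below. In bulk tissue, fewer cells of a type and less RNA per cell cannot be told apart.

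In untreated liver the members differed widely in level. Per kb of the longest coding transcript, the mean level was 153 ± 18.0 CPM per kb for Oaz1 (SD, n = 3), far above the rest. Sat1 followed at 34.2 ± 0.499 CPM per kb, then Azin1 at 27.5 ± 1.10 and Odc1 at 26.6 ± 4.31, and the last pair overlapped between livers. Srm at 8.57 ± 1.52 and Oaz2 at 7.67 ± 0.524 CPM per kb overlapped too. Paox stood at 5.07 ± 0.431 and Amd1 at 4.22 ± 0.164 CPM per kb, without overlap. Smox at 1.40 ± 0.339 and Sms at 0.674 ± 0.158 CPM per kb were the lowest, also without overlap. Transcripts of the antizyme thus outnumbered those of the enzyme per length in every no dox liver. The length behind the Paox value, 4655 nt, is that of the longest of several coding models, and a shorter model would raise it.

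**Figure D1:**
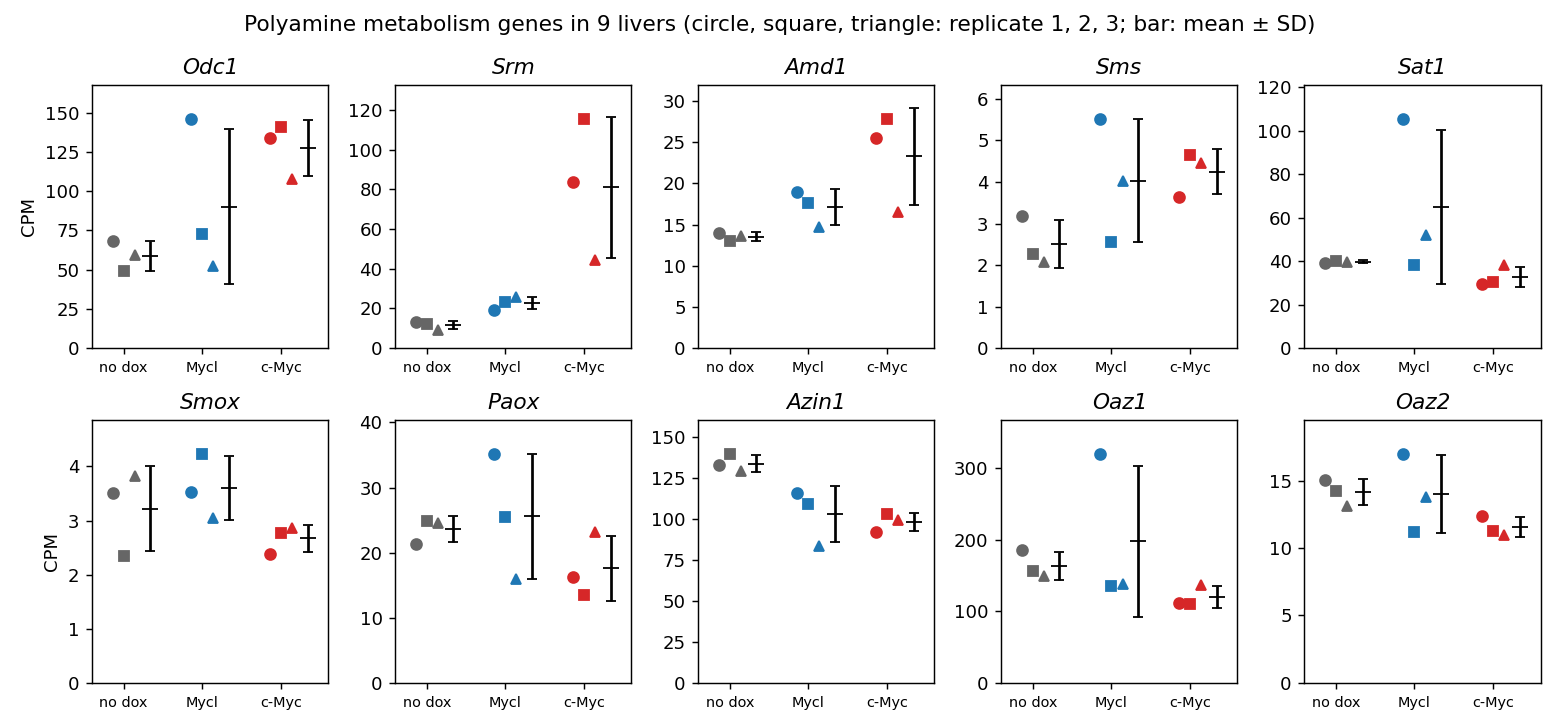
Scaled level (CPM, linear axis from 0) of the 10 polyamine genes in each of the 9 livers, by group, with the mean and SD of each group beside its points. Srm is highest in the 3 c-Myc livers (44.3 to 115 CPM), and Mycl replicate 1 is the highest liver for Odc1, Sms, Sat1, Paox, Oaz1 and Oaz2.

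The comparison of c-Myc with no dox livers tested how these genes differed between the 2 groups, in which transgene, drug and line cannot be told apart. By edgeR's quasi-likelihood test with Benjamini-Hochberg adjustment over all 12651 genes, 3 of the 10 members were higher, 0 were lower and 7 did not pass. Over all genes tested, 20.7% passed, 11.8% higher and 8.88% lower. With only 10 members, 3 calls beside that share were not read as a result about the members as a group. At an unadjusted p under 0.05, 4 members were higher and 1 lower, beside 17.7% and 17.2% of all genes. DESeq2 called 3 higher and 1 lower (24.8% of all genes passed), and limma-voom 3 higher and 0 lower (20.5%). Leaving out single libraries moved the share of 20.7% to between 9.38% (without c-Myc replicate 2) and 33.2% (without Mycl replicate 1). The 3 livers of each group did not overlap for 8 members, 4 higher and 4 lower, and for 50.7% of all genes, 22.6% higher and 28.1% lower. The median log2 fold change was -0.27 over the 10 members and -0.05 over all genes, and it was 0.95 over the 4 synthesis genes.

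Srm (ENSMUSG00000006442; chromosome 4, 148591503 to 148594993, GRCm38), the spermidine synthase gene, stood at 13.0, 12.3 and 9.15 CPM in no dox replicates 1, 2 and 3. In c-Myc replicates 1, 2 and 3 it stood at 83.5, 115 and 44.3 CPM. The groups did not overlap, and the lowest c-Myc liver was well above the highest control. The log2 fold change was 2.82 (edgeR adjusted p = 0.000575, SE 0.31). It passed under each of the 18 alternatives, which left out single libraries or changed the scaling, filter or tool, with values from 2.52 to 3.21.

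Odc1 (ENSMUSG00000011179; chromosome 12, 17544794 to 17551505) is the gene of the first enzyme of the pathway. It stood at 68.1, 49.1 and 59.4 CPM in no dox replicates 1, 2 and 3. It was at 134, 141 and 108 CPM in the c-Myc replicates, above every control. The log2 fold change was 1.12 (edgeR adjusted p = 0.0345, SE 0.32). The call was lost without any single no dox liver or without c-Myc replicate 1 or 2 (edgeR adjusted p = 0.0646 to 0.115), while the value stayed between 1.05 and 1.48 under all alternatives. Mycl replicate 1 is in neither group but enters the gene filter, the scaling, the shared estimate of spread and the adjustment. Without that library the Odc1 value was 1.16 (edgeR adjusted p = 0.000981, SE 0.16).

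Amd1 (ENSMUSG00000075232; chromosome 10, 40287458 to 40302186), which encodes the maker of the aminopropyl donor, stood at 14.0, 13.0 and 13.6 CPM in the no dox replicates. It was at 25.5, 27.8 and 16.6 CPM in the c-Myc replicates. The groups did not overlap, although c-Myc replicate 3 was close to the controls. The log2 fold change was 0.78 (edgeR adjusted p = 0.0196, SE 0.195), and the call was lost without no dox replicate 2 or 3 or c-Myc replicate 1 or 2 (edgeR adjusted p = 0.0553 to 0.0717). GENCODE lists 5 pseudogenes of Amd1 and a coding copy, Amd2, which had 0 to 3 counts per liver, so reads shared between the copies may be missing from these values.

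Sms (chromosome X, 157443855 to 157492287), the spermine synthase gene, stood at 3.17, 2.28 and 2.07 CPM in the no dox replicates and at 3.64, 4.65 and 4.46 CPM in the c-Myc replicates. All 3 c-Myc livers were above all controls, yet the difference did not pass (log2 fold change 0.75, edgeR adjusted p = 0.0996, SE 0.29). It rested on 26 to 89 reads per library in these groups. It passed without Mycl replicate 1 or 2, in a fit of the 6 libraries compared and with library totals (edgeR adjusted p = 0.0353, 0.0473, 0.0265 and 0.0256).

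The 3 genes of breakdown had negative differences from no dox that did not pass. Sat1, the acetyltransferase gene, was at 39.1, 40.2 and 39.8 CPM in the no dox replicates and at 29.5, 30.4 and 38.1 CPM in the c-Myc replicates. The groups did not overlap, with c-Myc replicate 3 close to the controls, and the log2 fold change was -0.28 (edgeR adjusted p = 0.55, SE 0.31). Smox, the spermine oxidase gene, ranged from 2.34 to 3.82 CPM in no dox and from 2.39 to 2.86 CPM in c-Myc livers (log2 fold change -0.27, SE 0.24). Paox ranged from 21.3 to 24.9 and from 13.5 to 23.2 CPM (log2 fold change -0.42, SE 0.28). With library totals, Sat1 and Smox had values of 0.07 and 0.09. Paox overlaps Echs1 on the opposite strand, which was at 229 to 261 CPM in no dox livers; the strand setting of the counting is not given in the sources used here, so the Paox values are uncertain.

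The regulators of ornithine decarboxylase were lower in all 3 c-Myc livers than in all controls, for each of Azin1, Oaz1 and Oaz2, and none passed. As given above, 28.1% of all genes were separated in that direction. Azin1 (chromosome 15, 38487427 to 38519266), the antizyme inhibitor gene, was at 133, 139.6 and 129 CPM in the no dox replicates and at 92.1, 103 and 99.3 CPM in the c-Myc replicates. Its log2 fold change was -0.45 (edgeR adjusted p = 0.0551, SE 0.15). Oaz1 (chromosome 10, 80826656 to 80829290) was at 185, 156 and 149 CPM in no dox and at 111, 111 and 137 CPM in c-Myc livers (log2 fold change -0.45, edgeR adjusted p = 0.321, SE 0.30). Without Mycl replicate 1, both Azin1 and Oaz1 passed, at -0.40 (edgeR adjusted p = 0.0247, SE 0.12) and -0.41 (edgeR adjusted p = 0.0351, SE 0.13). In the fit of the 6 libraries compared both passed too (edgeR adjusted p = 0.0129 and 0.044). Azin1 also passed by DESeq2 (DESeq2 adjusted p = 0.0345), and Oaz1 with the length trend removed (edgeR adjusted p = 0.0413). Oaz2, the second antizyme gene, ranged from 13.1 to 15.1 CPM in no dox and up to 12.4 CPM in c-Myc livers (log2 fold change -0.29, edgeR adjusted p = 0.243, SE 0.17). With library totals the Azin1 and Oaz1 values were near 0, at -0.08 and -0.10, and that of Oaz2 was 0.07, on a scale where the median gene was at 0.31. The pseudogenes of Oaz1, Oaz2 and Sms, 1 each, add the same uncertainty as for Amd1.

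Markers of other cells moved in this comparison as well, where 11.8% of all genes passed as higher and 8.88% as lower. Every c-Myc liver was above every control for 22.6% of all genes, and below for 28.1%. Dividing-cell markers (6 of 6 tested) summed to 16.5 to 34.9 CPM in no dox and 159 to 342 CPM in c-Myc livers, and all 6 were higher. Hepatocyte markers summed to 138645 to 157611 CPM in no dox and to 72524 to 108936 CPM in c-Myc livers, and 0 of 8 passed by edgeR (4 lower at an unadjusted p under 0.05), although all 8 were lower in every c-Myc liver than in every control. Kupffer cell markers were lower for 2 of 8, and summed to 316 to 361 CPM in no dox and 195 to 283 CPM in c-Myc livers. For 5 of these 8 every c-Myc liver was below every control, and for 1 above. Erythroid markers fell for 6 of 6 tested, from 228 to 300.2 CPM to 51.7 to 105 CPM in sum. Stellate cell markers were higher for 2 of 6, with sums of 369 to 468 CPM in no dox and 577 to 1104 CPM in c-Myc livers. For 3 of these 6 every c-Myc liver was above every control, and for 1 below. Neutrophil and monocyte markers were higher for 2 of 8, at 82.2 to 111 CPM in c-Myc livers. Of 8 endothelial markers 0 passed, and 4 were lower in every c-Myc liver than in every control. Their sums were 393 to 498 CPM in no dox and 263 to 358 CPM in c-Myc livers. For cholangiocytes 0 of 5 and for lymphocytes 0 of 2 tested markers passed. The part of all these cells in the differences of the polyamine genes was not tested.

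**Figure D2:**
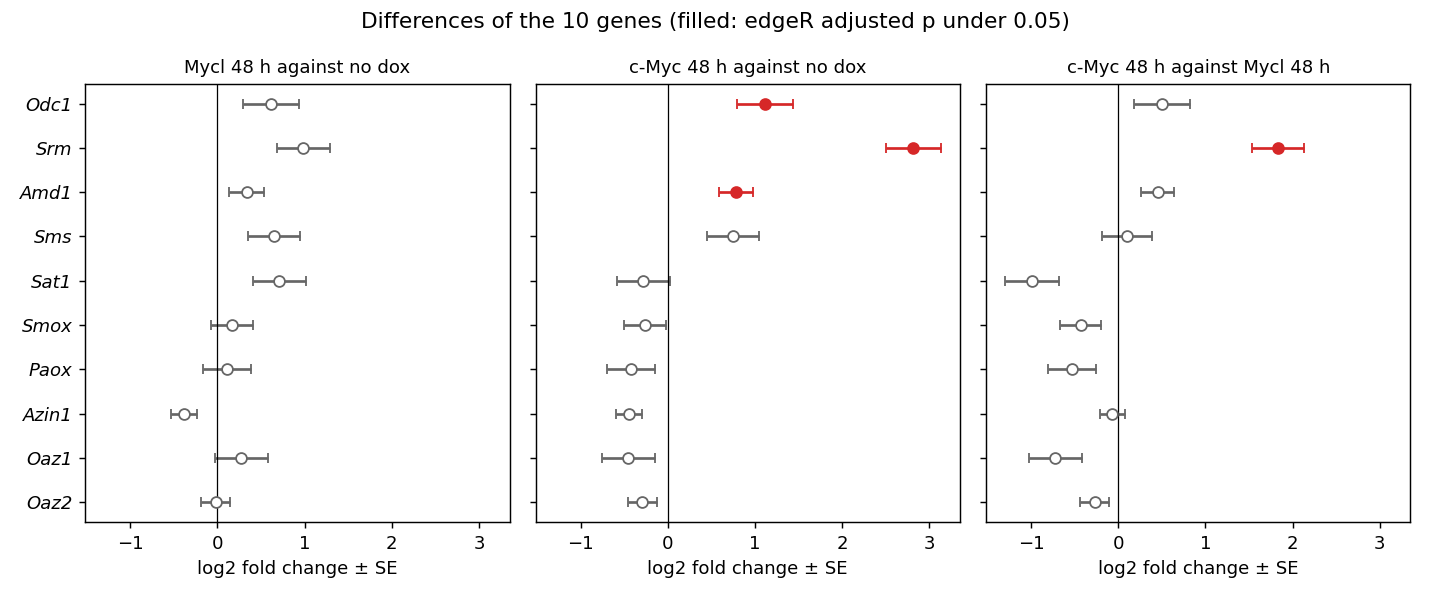
Log2 fold change with its standard error for the 10 genes in the 3 comparisons (edgeR, n = 3 livers a group); filled points passed an adjusted p under 0.05. Srm, Odc1 and Amd1 passed for c-Myc against no dox, Srm alone passed for c-Myc against Mycl, and no gene passed for Mycl against no dox.

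The comparison of Mycl with no dox livers tested the same for the Mycl livers, where transgene and drug cannot be told apart. By edgeR 0 of the 10 members passed, against 3.2% of all genes tested (2.24% higher and 0.964% lower). At an unadjusted p under 0.05, 2 members were higher (Srm and Sat1) and 1 lower (Azin1), beside 11% and 9.06% of all genes. Leaving out single libraries moved the share of 3.2% to between 0.203% (without no dox replicate 1) and 5.6% (without Mycl replicate 2). Groups did not overlap for Srm and Amd1, which were higher, and Azin1, which was lower, beside 29.4% of all genes (13.2% higher and 16.2% lower). DESeq2 called 1 higher, Srm (8.58% of all genes passed), and limma-voom called 0 (1.58%).

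Srm was at 19.3, 23.3 and 25.5 CPM in Mycl replicates 1, 2 and 3. All 3 were above all no dox livers, with a log2 fold change of 0.98 (edgeR adjusted p = 0.108, SE 0.30). Srm passed in the fit of the 6 libraries compared (1.02, edgeR adjusted p = 0.0428, SE 0.19), without c-Myc replicate 3 (0.98, edgeR adjusted p = 0.0352, SE 0.19) and by DESeq2 (1.02, DESeq2 adjusted p = 0.0253, SE 0.32). Without Mycl replicate 1 it was 1.14 (edgeR adjusted p = 0.0788, SE 0.32).

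Odc1 was at 146, 72.6 and 52.3 CPM in Mycl replicates 1, 2 and 3. Replicate 1 was as high as the c-Myc livers, replicate 2 was just above the controls and replicate 3 lay within their range. The log2 fold change was 0.61 (edgeR adjusted p = 0.31, SE 0.32), and 0.14 (edgeR adjusted p = 0.716, SE 0.18) without replicate 1. Amd1 was at 19.0, 17.6 and 14.7 CPM in the Mycl replicates, above every control (log2 fold change 0.33, edgeR adjusted p = 0.363, SE 0.20). Sms was at 5.51, 2.55 and 4.02 CPM, overlapping the controls (log2 fold change 0.65, edgeR adjusted p = 0.259, SE 0.30, and 0.42, SE 0.28, without replicate 1).

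For 2 short transcripts the Mycl values rested on replicate 1. Oaz1 was at 320, 135 and 138 CPM in Mycl replicates 1, 2 and 3, and its log2 fold change was 0.27 (SE 0.30) with all livers and -0.21 (SE 0.14) without replicate 1. Sat1 was at 105, 38.2 and 51.8 CPM, and its value of 0.71 (edgeR adjusted p = 0.226, SE 0.30) became 0.24 (edgeR adjusted p = 0.43, SE 0.15). Without Mycl replicate 2 Sat1 passed, at 1.03 (edgeR adjusted p = 0.049, SE 0.26). The longest coding transcripts of Oaz1 and Sat1 have 1071 and 1162 nt, and genes in the next length class above 800 nt had a median difference from no dox of 0.72 (log2) in that library. With the length trend removed, the values were -0.09 (SE 0.15) for Oaz1 and 0.38 (SE 0.17) for Sat1, and that of Odc1, with 2208 nt, was 0.57 (SE 0.29). The part of transcript length in these values was not tested further.

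Azin1 was at 116, 109 and 83.3 CPM in the Mycl livers, below every control, with a log2 fold change of -0.38 (edgeR adjusted p = 0.186, SE 0.15), and of -0.20 (SE 0.14) without Mycl replicate 3. Smox ranged from 3.046 to 4.23 CPM, Paox from 16.0 to 35.1 CPM and Oaz2 from 11.2 to 16.99 CPM, each overlapping the controls. Their log2 fold changes were 0.17 (SE 0.24), 0.11 (SE 0.27) and -0.02 (SE 0.17). Without Mycl replicate 1, those of Paox and Oaz2 were -0.13 (SE 0.245) and -0.12 (SE 0.14). Dividing-cell markers summed to 75.8 to 128 CPM in the Mycl livers, 5 of 6 being higher than in no dox livers, and neutrophil and monocyte markers were higher for 3 of 8. Their part in the values of the polyamine genes was not tested.

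The comparison of c-Myc with Mycl livers tested the difference between the 2 induced lines. Srm alone of the 10 members passed, towards higher values in c-Myc livers, against 6.77% of all genes tested (4.14% higher and 2.63% lower). Leaving out single libraries moved the share of 6.77% to between 0.524% (without c-Myc replicate 1) and 12.1% (without c-Myc replicate 3). At an unadjusted p under 0.05, 2 members were higher (Srm and Amd1) and 2 lower (Sat1 and Oaz1), beside 14% and 13% of all genes. Groups did not overlap for Srm, which was higher, and for Sat1 and Smox, which were lower, beside 25.7% of all genes (13.7% higher and 12% lower). DESeq2 called Srm higher and Sat1 lower, beside 13.8% of all genes in either direction. For Srm, no c-Myc liver overlapped a Mycl liver, and the log2 fold change was 1.83 (edgeR adjusted p = 0.0153, SE 0.30), or 3.56-fold. The call was lost without c-Myc replicate 1 or 2 (edgeR adjusted p = 0.0563 and 0.0519) and in the fit of the 6 libraries compared (edgeR adjusted p = 0.0572). The reporter did not pass between the lines (log2 fold change 0.31, edgeR adjusted p = 0.764, SE 0.58).

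Odc1 was 0.50 higher on the log2 scale in c-Myc than in Mycl livers (edgeR adjusted p = 0.335, SE 0.32). Without Mycl replicate 1 the value was 1.02 (edgeR adjusted p = 0.0201, SE 0.19), so this library decides the call. Sat1 was lower in every c-Myc than in every Mycl liver, by a narrow margin (at most 38.1 against at least 38.2 CPM), with a log2 fold change of -0.99 (edgeR adjusted p = 0.0789, SE 0.31) and of -0.47 (edgeR adjusted p = 0.0865, SE 0.15) without Mycl replicate 1. It passed with the length trend removed (-0.67, edgeR adjusted p = 0.0335, SE 0.17) and without Mycl replicate 2 (-1.27, edgeR adjusted p = 0.0377, SE 0.26). Oaz1 had -0.73 (edgeR adjusted p = 0.161, SE 0.30), and -0.20 (SE 0.14) without Mycl replicate 1. Amd1 had a value of 0.45 (edgeR adjusted p = 0.169, SE 0.19). Sms had 0.10 (SE 0.29) and Azin1 -0.07 (SE 0.15), and without Mycl replicate 1 Sms had 0.37 (SE 0.27). Kupffer cell markers were lower in c-Myc than in Mycl livers for 3 of 8 (sums of 195 to 283 against 344 to 438 CPM), erythroid markers were lower for 4 of 6 (51.7 to 105 against 151 to 542 CPM) and dividing-cell markers were higher for 1 of 6 (159 to 342 against 75.8 to 128 CPM). Their part in these differences was not tested.

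Within the induced lines the livers with more reporter did not order the synthesis genes alike. In the c-Myc line the reporter was at 221, 282 and 76.4 CPM in replicates 1, 2 and 3, and Srm, Amd1 and Odc1 each followed the same order, lowest in replicate 3 and highest in replicate 2. In the Mycl line the reporter was at 52.3, 146 and 270 CPM in replicates 1, 2 and 3. Srm followed that order too, from 19.3 to 25.5 CPM, whereas Odc1 and Amd1 ran the other way, highest in replicate 1 and lowest in replicate 3. Sms, given above, followed the reporter in neither line: it was lowest in c-Myc replicate 1 and in Mycl replicate 2. Mycl replicate 3 had a reporter level close to that of c-Myc replicate 2, and Srm was at 25.5 CPM in the former and 115 CPM in the latter. With 3 livers a line these orders are a description.

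**Figure D3:**
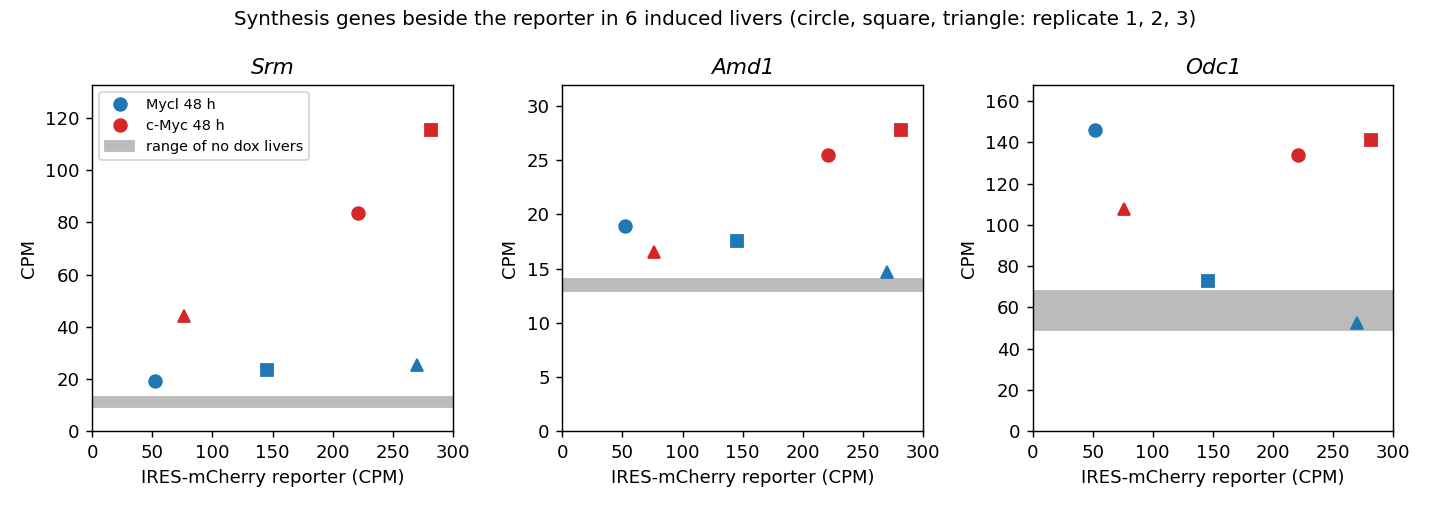
Level of Srm, Amd1 and Odc1 (CPM) against that of the IRES-mCherry reporter (CPM) in the 6 induced livers, with the range of the no dox livers as a grey band. In c-Myc livers all 3 genes are lowest where the reporter is lowest (76.4 CPM), while Odc1 is highest in the Mycl liver with the least reporter (52.3 CPM).

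The ratio of Odc1 to Oaz1 within each liver does not depend on the scaling of libraries. There were 36.7, 31.4 and 39.8 reads of Odc1 per 100 reads of Oaz1 in no dox replicates 1, 2 and 3. The Mycl replicates had 45.6, 53.7 and 37.8, and the c-Myc replicates 121, 128 and 78.5. Every c-Myc liver was above every other liver, while Mycl and no dox livers overlapped. The mean log2 ratio was 1.57 higher in c-Myc than in no dox livers, with SDs of 0.38 and 0.17 (exact two-sided permutation test, p = 0.1, the smallest that 3 against 3 livers can give). It was 1.23 higher in c-Myc than in Mycl livers (exact permutation p = 0.1) and 0.34 higher in Mycl than in no dox livers (exact permutation p = 0.2). Left out one at a time, the libraries changed these differences to 1.44 to 1.79, 1.10 to 1.46 and 0.21 to 0.47. Mycl replicate 1, which had the highest values of both genes, had a ratio between those of the other Mycl livers.

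Around the 10 members, a list of 38 neighbouring genes of the pathway was described by the same fit, of which 30 were tested. The other 8 had 0 to 13 counts per liver: Arg2, Amd2, Satl1, Oaz3, Atp13a4, Slc12a8, Slc22a2 and Aoc1. For c-Myc against no dox, 5 of 30 were higher, 5 lower and 20 did not pass, with a median log2 fold change of -0.06 beside -0.05 over all genes. Over all genes 11.8% passed as higher and 8.88% as lower. Groups did not overlap for 8 of the 30 towards higher and 8 towards lower values, beside 22.6% and 28.1% of all genes. The counts by role that follow are descriptions of a few genes each, to be set beside these shares. With library totals the split was 9 higher and 1 lower, and over all genes the share of higher calls moved from 57% to 90.4%. Without any single no dox liver, or without c-Myc replicate 1 or 2, Eif5a, Slc7a1 and Oat passed and no other gene of the list did. In these fits 9.38% to 11.9% of all genes passed. Without Mycl replicate 1, 8 were higher and 7 lower, beside 33.2% of all genes in either direction.

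Of 5 tested genes that make, use or carry ornithine and arginine, 3 were lower in c-Myc than in no dox livers and 0 higher. With library totals Oat alone of the 3 passed. Oat, the aminotransferase that breaks ornithine down, was at 459, 378 and 476 CPM in the no dox replicates and at 157, 103 and 256 CPM in the c-Myc replicates. The log2 fold change was -1.35 (edgeR adjusted p = 0.00959, SE 0.28), with no overlap. Otc, which feeds ornithine into the urea cycle, fell by 0.82 on the log2 scale (edgeR adjusted p = 0.0169, SE 0.20), and the ornithine carrier gene Slc25a15 by 0.74 (edgeR adjusted p = 0.0272, SE 0.20). Arg1, the arginase that makes ornithine, had -0.33 (edgeR adjusted p = 0.368, SE 0.24). Slc7a1, a cell membrane carrier of arginine and ornithine, was 1 of 9 transport genes tested and the only one of them to pass. For 3 of these 9, Slc7a1 among them, every c-Myc liver was above every control, beside 22.6% of all genes. Slc7a1 was at 1.42, 1.96 and 1.75 CPM in no dox and at 9.45, 15.2 and 6.05 CPM in c-Myc livers (log2 fold change 2.59, edgeR adjusted p = 0.00214, SE 0.40). The hepatocyte markers that stood lower in c-Myc livers, given above, moved with the fall of Oat, Otc and Slc25a15, and their part was not tested.

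Of 8 tested genes of methionine use and salvage, 3 rose and 0 fell. Another 3 that did not pass, Mat2b, Apip and Adi1, were lower in every c-Myc liver than in every control (log2 fold changes of -0.44, -0.70 and -0.23). Over all genes 28.1% were separated in that direction. Mtap, which salvages the methylthioadenosine that both synthases release, was at 35.1, 31.2 and 29.0 CPM in no dox and at 53.2, 75.9 and 38.5 CPM in c-Myc livers (log2 fold change 0.81, edgeR adjusted p = 0.0306, SE 0.23). Enoph1, a later enzyme of that salvage, rose by 0.90 (edgeR adjusted p = 0.0476, SE 0.28) although its groups overlapped. Mat2a, the S-adenosylmethionine synthetase gene of tissues outside the liver and of growing hepatocytes, rose by 0.75 (edgeR adjusted p = 0.0411, SE 0.23). Mat1a, its counterpart in adult liver, had -0.09 (edgeR adjusted p = 0.859, SE 0.28). Neither Mat2a nor Enoph1 passed by limma-voom.

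Spermidine is also the source of hypusine, a modified lysine of the translation factor encoded by Eif5a, and 1 of 4 tested hypusine genes rose. Eif5a was at 265, 250.3 and 253 CPM in the no dox replicates and at 437, 492 and 416 CPM in the c-Myc replicates. The groups were far apart relative to their spread (log2 fold change 0.81, edgeR adjusted p = 0.00992, SE 0.17). The genes of the modifying enzymes, Dhps and Dohh, had 0.24 (edgeR adjusted p = 0.652, SE 0.33) and 0.37 (edgeR adjusted p = 0.173, SE 0.18). Both amine breakdown genes tested fell, Aldh9a1 and Maob by 0.71 (edgeR adjusted p = 0.0113, SE 0.16) and 0.67 (edgeR adjusted p = 0.0375, SE 0.20). Neither passed with library totals, and the hepatocyte markers stood lower in the same livers.

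Under Mycl 0 of the 30 neighbouring genes passed by edgeR, beside 3.2% of all genes. At an unadjusted p under 0.05, 2 were higher and 4 lower, beside 11% and 9.06% of all genes. DESeq2 called 1 lower, Oat (8.58% of all genes passed), and limma-voom 0 (1.58%). Oat was at 215, 196 and 234 CPM in the Mycl livers, below every control (log2 fold change -1.02, edgeR adjusted p = 0.0804, SE 0.28). Slc7a1 was at 2.89, 2.77 and 5.73 CPM, above every control (log2 fold change 1.16, edgeR adjusted p = 0.154, SE 0.41). Eif5a had 0.37 (edgeR adjusted p = 0.266, SE 0.17), Mat1a 0.71 (edgeR adjusted p = 0.2, SE 0.28) and Arg1 0.48 (edgeR adjusted p = 0.305, SE 0.25). Mtap, Mat2a, Dhps and Dohh lay between -0.18 and 0.36. For c-Myc against Mycl, 2 of the 30 passed as higher and 0 as lower, beside 4.14% and 2.63% of all genes. They were Mat2a (0.93, edgeR adjusted p = 0.0406, SE 0.23) and Slc7a1 (1.43, edgeR adjusted p = 0.0469, SE 0.37). Both calls were lost without any single no dox liver, without c-Myc replicate 1 or 2, by limma-voom, in the fit of the 6 libraries compared and with the replicate block. At a minimum count of 50 Mat2a alone passed. Only Slc7a1 was lost without Mycl replicate 1, only Mat2a without Mycl replicate 3, and both without Mycl replicate 2.

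**Figure D4:**
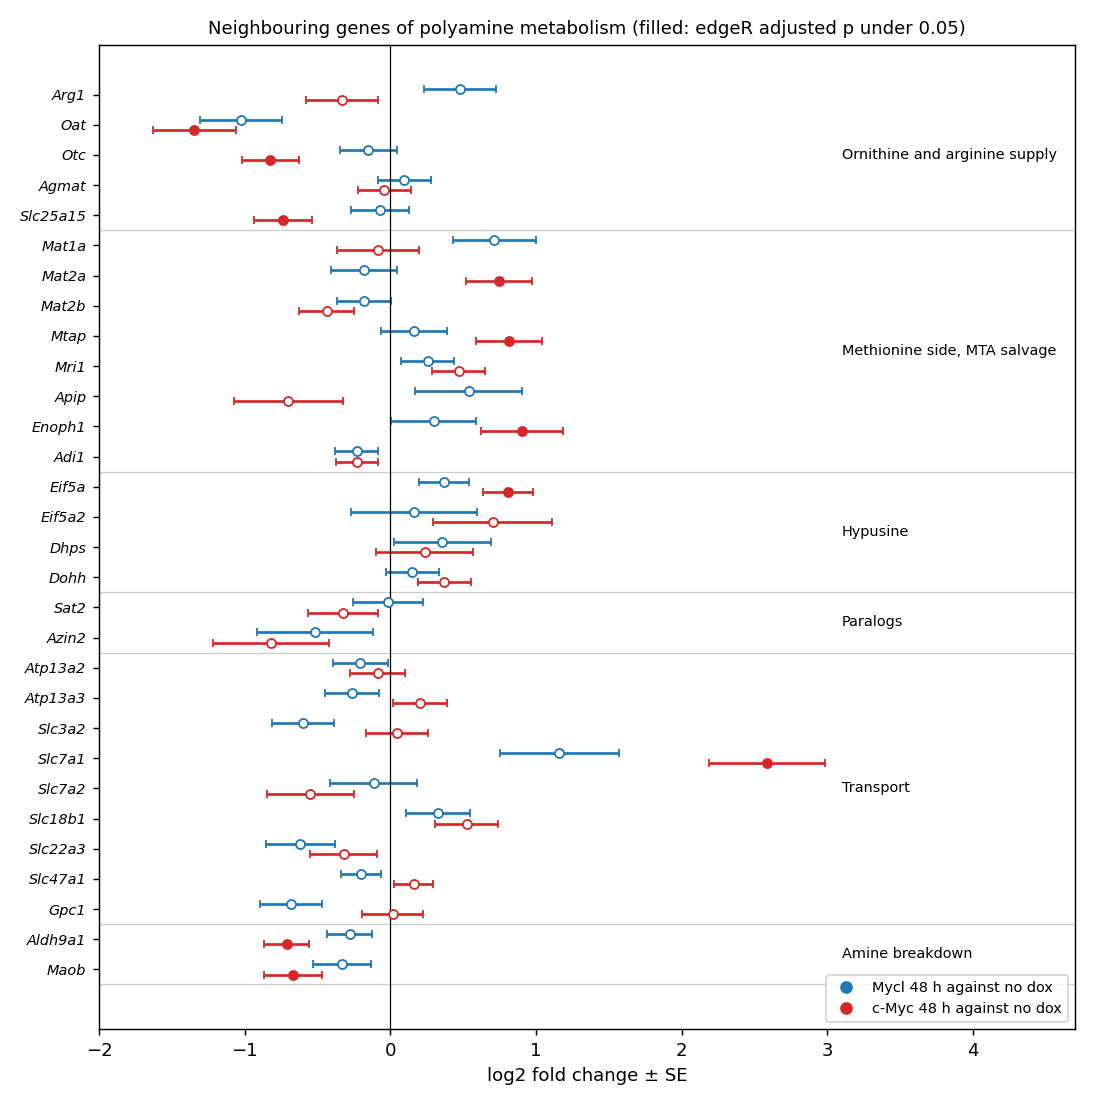
Log2 fold change with its standard error for the 30 tested neighbouring genes, by role, for Mycl (blue) and c-Myc (red) against the same no dox livers; filled points passed an edgeR adjusted p under 0.05. Slc7a1 has the highest c-Myc value (2.59) and Oat the lowest (-1.35), and no Mycl point is filled.

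The genes whose values over the 9 livers lay closest to those of Srm and Odc1 were found by the root-mean-square difference in log2 CPM, each gene centred on its no dox mean, among 6324 other genes above the median level. For Srm these were Atad2 at 0.245, Mcm7 at 0.26, Mcm4 at 0.27, Mcm3 at 0.29 and Smc2 at 0.32, where the median gene was at 1.82. For Odc1 they were Rfc5 at 0.21, Ran at 0.22, Smyd2 at 0.23, Mrpl42 at 0.23 and Cacybp at 0.25, against a median of 0.93. The c-Myc fold changes of the 5 genes near Srm lay between 2.55 and 2.87 (log2), and those of the 5 near Odc1 between 0.92 and 1.31. The genes were picked by their values in these same livers, so fold changes near those of Srm and Odc1 were fixed by the choice.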

How the data were processed

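The deposited table holds the authors' raw read counts for each gene, without normalisation, for 9 libraries prepared with a directional kit, per the labels' protocols. The submitters' processing notes name cutadapt 3.0, STAR 2.7.8a, HTSeq 0.11.2, DESeq2 1.30.0 and mm10; the sources used here give neither strand setting nor annotation. Positions and lengths came from GENCODE M21 (GRCm38), in which 21588 of 21702 identifiers were found.

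The analysis of counts used edgeR 4.0.16 under R 4.3.3: filterByExpr (minimum count 10), TMM scaling, 1 quasi-likelihood fit of all 9 libraries with 3 contrasts, and Benjamini-Hochberg adjustment over 12651 genes at 0.05. The SE is the log2 fold change divided by the square root of F. The procedure was tested on simulated data. Alternatives used DESeq2 1.42.0, limma 3.58.1 (voom), other scalings and filters, a length correction, a fit of only the 6 libraries compared, replicate number as a block, and leaving out single libraries. Replicate pairs differed by more than sampling noise. Nothing says which livers shared a litter or day, so p-values measure the spread between these livers.

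Members and lists were chosen with earlier results of these data known. The text names all 10 members, the neighbouring genes that passed, and 8 neighbours whatever their result. 1 gene of the neighbouring list is not reported here and is left out of the list's counts.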

Additional observations from a re-analysis of the deposited data

How the results depend on the processing

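Over the 10 members, 3 comparisons and 18 alternatives, 490 of 540 values kept their direction and side of the threshold. Another 12 lost their call, 19 gained one and 19 changed sign, none of the last from a call. The cause was not tested. For Mycl against no dox, 1 member passed by DESeq2 and 1 in the fit of the 6 libraries compared (leave-one-out range 0 to 1). Among neighbouring genes 1 passed by DESeq2 and 1 in the fit of 6 (0 to 1). Over all genes 8.58% passed by DESeq2 and 2.42% in the fit of 6, against 3.2%. For c-Myc against no dox, 6 members passed in the fit of 6 (1 to 6), and leaving out a library gave 3 to 15 neighbouring genes against 10. Over all genes 33.1% passed in the fit of 6, and 9.38% to 33.2% without a library, against 20.7%. For c-Myc against Mycl, 2 members passed by DESeq2, 2 with the length trend removed and 0 in the fit of 6 (0 to 2). There, 7 neighbouring genes passed with library totals, 1 at a minimum count of 50, 11 by DESeq2 and 0 by limma-voom. In the fit of 6 there were 0, with the replicate block 1 (Gpc1) and with the length trend removed 6, against 2 (0 to 8). Over all genes the shares were 13.3% with library totals, 6.96% at a minimum count of 50, 13.8% by DESeq2 and 5.74% by limma-voom. They were 0.591% in the fit of 6, 5.45% with the replicate block and 10.1% with the length trend removed, against 6.77%.

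Sign changes came at small values. For Mycl against no dox, Oaz2 (-0.02) had 0.012 with DESeq2 size factors, 0.11 with library totals, 0.0094 at a minimum count of 50, 0.0077 by DESeq2 and 0.0078 in the fit of 6 (leave-one-out range -0.12 to 0.17). Oaz1 (0.27) had -0.0902 with the length trend removed (-0.21 to 0.54), and Paox had -0.13 to 0.41. With library totals, c-Myc against no dox gave Sat1 0.0716, Smox 0.092 and Oaz2 0.0679, and c-Myc against Mycl gave Azin1 0.16 (-0.20 to 0.0177). Sms had -0.17 to 0.37 there. Library totals raised the median of all genes to 0.14, 0.31 and 0.20 in the order of the comparisons, and the share of higher calls from 69.9% to 83.2%, from 57% to 90.4% and from 61.1% to 86.7%.

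Same-numbered livers had correlations of deviations from -0.19 to 0.31, and others from -0.27 to 0.19. These ranges overlap and cannot decide whether the numbers pair the livers. With the replicate block 228 genes were higher and 69 lower for Mycl, 1418 and 943 for c-Myc, and 411 and 278 between them; 0, 3 and 1 members passed, as without it. Sms and Smox had under 6 CPM in every liver, which limits their precision.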
